A study of Saccharomyces cerevisiae with 5 samples.

Results

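The replication programme of budding yeast with raised initiation factors was described from 2 of 5 samples, galactose E and galactose G, chosen by their medium and strain labels and not by any measured value. The series profiles replication of Saccharomyces cerevisiae by sequencing Okazaki fragments, the pieces in which the lagging strand is made, in asynchronous cultures. Galactose E and G are a strain called WT [yIW160-SSDDCS], in which galactose drives overexpression of Sld2, Sld3, Dbf4, Dpb11, Cdc45 and Sld7. Glucose F (n = 1) is the same strain grown in glucose, and wild type A and B (n = 2) are WT [yIW160], whose medium is not among their labels. The growth note, the same for all 5 samples, gives 30 degrees, glucose or galactose at 2% for 4 hours, and then 2.5 hours with 40 micrograms of doxycycline per ml. Galactose and glucose samples were single-end Ion Torrent libraries and wild type was paired-end Illumina, so platform and strain cannot be told apart from each other, nor can galactose from overexpression. The amount of each factor in the cells is not among the data used here. Nothing in the labels says that replicates were separate cultures, so every p-value below measures only the spread between these samples.

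In budding yeast, replication starts at defined origins, where an inactive helicase is loaded before S phase. Sld3 and Sld7 bring Cdc45 to the loaded helicase, Dbf4 activates the kinase Cdc7 that prepares it, and Sld2 with Dpb11 helps to add the remaining parts. Most of these proteins are scarce in yeast cells and are shared among origins, which is background known for this organism and not a result here. Forks from neighbouring origins run toward each other and end where they meet, and in this assay repression of DNA ligase I leaves Okazaki fragments unjoined, so that their strand shows which way forks moved.

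Each sample came as the authors' fitted model, a set of fork paths with probabilities, positions and times. Initiation sites were read off the fit wherever paths in both directions begin at the same point with a probability of at least 0.1. That probability is the share of genome copies in which the fit starts replication there. The rightward share of a position is the summed probability of rightward forks passing it, divided by that of all forks passing it. Times are minutes of the fit at a constant fork speed of 2900 bp per minute, counted from each sample's own earliest mean position, and they were not measured with a clock. Positions are those of galactose E in the authors' coordinates unless said otherwise, and the genome build is not given in the sources used here. The files hold no read counts, so depth is unknown. The fits of galactose E and G consist of 3345 and 3189 segments.

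Most initiation sites of the induced cells were used in most copies of the genome. The fit of galactose E held 316 sites and that of G 339, against 277 in glucose F and 282 and 309 in the wild-type samples (exact permutation p = 0.2). Their mean probability was 0.789 in E and 0.803 in G, or 0.796 ± 0.00978 (SD, n = 2), against 0.657 in glucose F, 0.590 in wild type A and 0.596 in B. Sites used in at least 0.9 of copies made up 38.3% of all sites in E and 48.7% in G. In glucose F they made up 18.4%, in wild type A 5.32% and in B 11.97%. Both galactose samples lay above all 3 others in both measures (two-sided exact permutation p = 0.1 for each, the smallest that 2 samples against 3 allow; adjusted p = 0.12 over 18 measures).

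Many sites reached a probability that rounds to 1. These were 17.7% of sites in E and 31.0% in G, 6.86% in glucose F, 2.13% in wild type A and 4.53% in B. By class, E held 14 sites from 0.1 to under 0.3, 23 from 0.3 to under 0.5, 46 from 0.5 to under 0.7, 112 from 0.7 to under 0.9, 65 from there to just under 1, and 56 at 1. In G the same classes held 19, 23, 48, 84, 60 and 105 sites. The 2 galactose samples thus differed mainly above 0.7, where G had more sites at 1 and fewer from 0.7 to under 0.9. Sites under 0.5 were 11.7% and 12.4% of the sites in galactose, 26.7% in glucose F, 33.7% in wild type A and 35.6% in B.

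**Figure D1:**
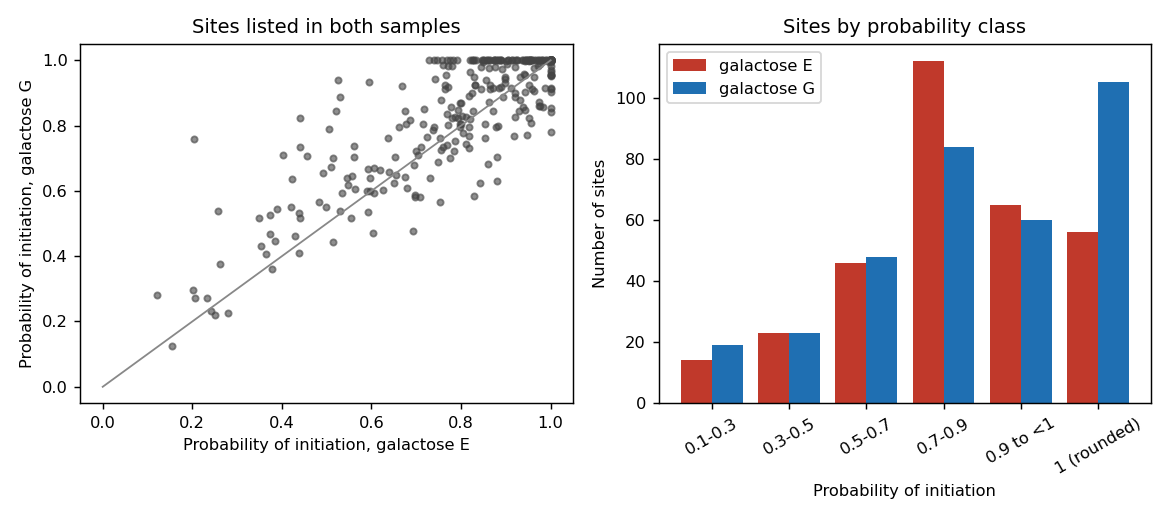
Left, the probability of initiation in galactose E (x axis) and galactose G (y axis), one point for each of the 307 sites listed in both, with the line of equal values in grey. Right, the number of sites of each galactose sample by class of probability; G has 105 sites at 1 and E has 56.

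Galactose E and G placed their sites at nearly the same positions. Sites within 2500 bp of each other were taken as the same, which gave 307 shared sites of 348 in all, or 97.2% of the sites of E and 90.6% of those of G. The median distance between the paired positions was 140 bp, and 85.0% of pairs lay within 500 bp. Wild type A and B, paired in the same way, shared 266 of 325 sites. The 1 galactose sample against the other cannot be tested, so all values that set E against G are given as a description, beside those of the wild-type pair.

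The use of a shared site differed between E and G by a median of 0.0587, against 0.0743 between wild type A and B. G was higher at 182 sites, E was higher at 83, and at 42 the values were equal. Across the 307 sites, which come from the same 2 fits, Pearson's r of the probability was 0.846 (0.911 between wild type A and B). Sites at 0.9 or more in both numbered 103, those in E alone 18 and those in G alone 59. At 0.7 or more in both were 223 sites, 72.6% of the shared ones.

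The 8 shared sites that differed most were all higher in G. The site on chromosome XI at 195966 stood at 0.204 in E and 0.759 in G, with 0.524 in glucose F, 0.256 in wild type A and 0.311 in B. On chromosome V at 520859 the values were 0.525 and 0.940, while glucose and wild type A listed no site there and wild type B stood at 0.186. Chromosome XII at 948235 had 0.441 and 0.822, and there the 3 other samples ran from 0.361 to 0.665. The site on chromosome XIII at 772652 was listed in neither glucose nor wild type and stood at 0.521 in E and 0.843 in G. The other 4, on chromosomes VII at 976715, XVI at 457752, XV at 617072 and IV at 1447123, stood at 0.402 to 0.594 in E and 0.710 to 0.933 in G.

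Sites at 1 in both galactose samples numbered 42 and lay on 15 of 16 chromosomes. In the other samples their median probability was 0.816 in glucose F, 0.727 in wild type A and 0.786 in B. Of the 42, 36 were listed in all 3 other samples and 1, on chromosome X at 654458, in none of them. This set was chosen after its values had been seen and is given without a test. Runs of neighbouring sites at 0.9 or more in both samples, with no site of 1 sample alone between them, reached 6 sites on chromosome II from 63225 to 238205. Runs of 4 sites lay on chromosome IV from 1240964 to 1353690, on X from 228993 to 375573 and on XIII from 183939 to 288183.

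Sites of 1 galactose sample alone were few. E had 9, with a mean probability of 0.474, and G had 32, with a mean of 0.445. A site of the other sample lay within 5 kb of 4 of the 9 and of 4 of the 32. In G, 23 of the 32 were under 0.5 and 5 were at 0.8 or more, while E had none at 0.8 or more. Those 5 were looked up after their values had been seen. Of them, IV at 233372 and IV at 1380031 stood at 1, and a site of E lay 3.01 and 2.77 kb away (positions in G). Chromosome X at 203803 stood at 0.953 in G and at 0.897, 0.859 and 0.963 in glucose F and wild type A and B, and was not listed in E, whose nearest site was 25.2 kb away. Chromosome XIV at 567901 stood at 0.897 in G and was listed in no other sample. Chromosome XVI at 843460 stood at 0.831 in G and 0.362 in wild type A, and was not listed elsewhere.

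Site use varied with the distance to the nearest site. In E the mean probability was 0.554 for 20 sites with a neighbour under 15 kb away, 0.779 for 177 sites at 15 to 30 kb and 0.845 for 119 sites over 30 kb away. In G the means were 0.575, 0.811 and 0.857 for 32, 200 and 107 sites. Sites close to another were thus the weaker ones in both galactose samples, and wild type A (0.297, 0.575 and 0.620) and B (0.384, 0.580 and 0.636) had the same order at lower values. By start time the means moved less, from 0.747 to 0.822 over the quartiles of E and from 0.744 to 0.840 over those of G, lowest in the latest quartile of each.

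Adjacent sites lay closer together in galactose. Among sites of at least 0.3, the median distance to the next was 35.0 kb in E (285 distances) and 33.3 kb in G (303), against 43.6 kb in glucose F, 43.1 kb in wild type A and 40.6 kb in B. Both galactose samples lay below all 3 others (exact permutation p = 0.1, the smallest possible; adjusted p = 0.12). With all sites of at least 0.1, the difference between galactose and the other 3 shrank from -8.29 to -3.89 kb (exact permutation p = 0.2). The limit of 0.3 leaves out 14 and 19 sites in E and G, and 41, 42 and 58 in glucose F and wild type A and B. The spacing is thus not separate from site probability. At the limit of 0.3, the 10th percentile was 18.8 and 17.6 kb in galactose, 21.5 kb in glucose F, 23.4 kb in wild type A and 21.7 kb in B. The 90th percentile was 61.7 and 57.9 kb in galactose, 75.5 kb in glucose F, 78.1 kb in wild type A and 77.0 kb in B. The longest distance was 103 kb in E and 94.9 kb in G, both on chromosome IV and ending at 1016465 and 1016900, against 151 kb in glucose F, 148 kb in wild type A and 127 kb in B.

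The same pair of sites of at least 0.3 bounded 257 intervals in E and G, which are called shared intervals here. Weaker sites can lie inside them. Their 5 longest were on chromosome VII from 568234 to 660126 (91.9 kb in E), XV from 354458 to 436809 (82.4 kb), X from 459926 to 540662 (80.7 kb), II from 408070 to 486881 (78.8 kb) and IV from 1166202 to 1240964 (74.8 kb). The 5 shortest, on chromosomes XVI, XV, I, VI and XI, measured 11.9 to 14.7 kb in E and 13.4 to 14.0 kb in G, and their flanking sites stood at 0.362 to 0.734 in both samples. None of those flanking sites reached 0.9.

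**Figure D2:**
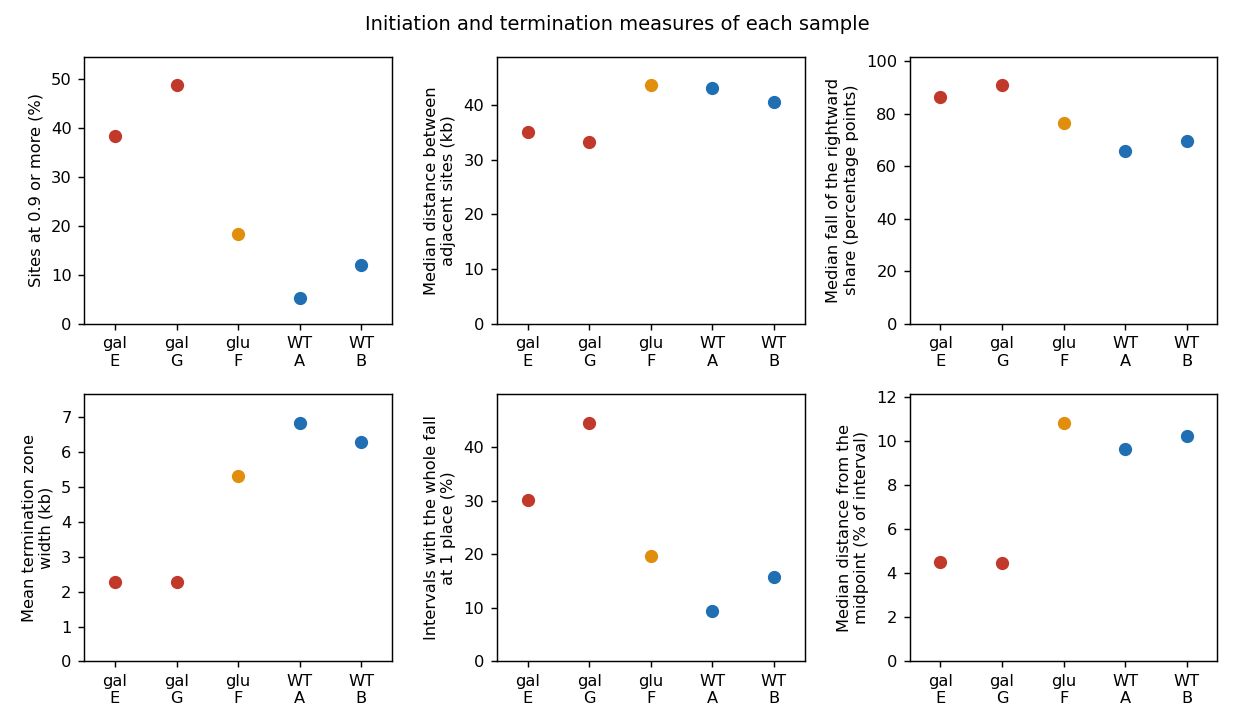
Values of galactose E and G (red), glucose F (orange) and wild type A and B (blue) for 6 measures of initiation and termination, one point per sample, with all y axes from 0. The galactose samples lie apart from the other 3 in each panel, for example at 2.26 and 2.29 kb against 5.33 to 6.84 kb for the mean termination zone.

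Between neighbouring sites, forks of the induced cells ended in narrow places. The fit falls in steps, so a termination zone was taken as the stretch over which the rightward share falls from 75% to 25% of its range between the sites. The median width was 0 in all 5 samples, which leaves nothing to compare (exact permutation p = 1). The mean width was 2.26 kb in E and 2.29 kb in G, against 5.33 kb in glucose F, 6.84 kb in wild type A and 6.29 kb in B (exact permutation p = 0.1, the smallest possible; adjusted p = 0.12). Zones of 0 bp made up 77.9% and 79.5% of intervals in galactose, 61.2% in glucose F, 53.2% in wild type A and 55.6% in B. With intervals bounded only by sites of at least 0.9, which skips weaker sites between them, the order was lost: the means were 5.52 and 3.82 kb in galactose, 9.04 kb in glucose F, 0 kb in wild type A and 4.58 kb in B. Glucose and wild type then had 35, 5 and 24 intervals, against 104 and 148 in galactose.

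In many intervals of galactose the whole fall came at 1 place. This held for 30.2% of intervals in E and 44.6% in G, against 19.6% in glucose F, 9.46% in wild type A and 15.8% in B (exact permutation p = 0.1, the smallest possible; adjusted p = 0.12). Here too the order was lost with intervals bounded only by sites of at least 0.9, at 27.9% and 51.4% in galactose, 28.6% in glucose F, 75% in wild type A and 20.8% in B. The median fall of the rightward share across an interval was 86.5 and 90.8 percentage points in galactose, 76.4 in glucose F, 65.9 in wild type A and 69.6 in B. In 33 shared intervals both flanking sites stood at 0.9 or more in both samples. There every zone was 0 bp wide, the median fall was 100 percentage points in both, and the whole fall came at 1 place in 69.7% in E and 90.9% in G. In a fit that falls in steps, flanking sites this strong place nearly the whole fall at 1 point, so these values follow largely from the choice of intervals. In the other 224 the mean width was 2.09 kb in E and 2.27 kb in G, and 26.8% and 40.2% had the whole fall at 1 place. Longer intervals had wider zones, at 2.54 and 3.15 kb over the 128 longer intervals and 1.11 and 0.815 kb over the 129 shorter.

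As the termination position served the point at which the rightward share passes the middle of its range. It lay close to the midpoint between the sites, at a median of 4.52% and 4.47% of the interval from it in galactose, 10.8% in glucose F, 9.63% in wild type A and 10.2% in B (exact permutation p = 0.1, the smallest possible; adjusted p = 0.12). Between E and G it moved by a median of 1.015 kb over the 257 shared intervals, and by at most 2 kb in 197 of them. In wild type the median shift was 1.448 kb over 178 intervals, with 105 within 2 kb. Shifts over 5 kb numbered 10 in galactose and 22 in wild type. A zone of 0 bp in both samples was found in 192 galactose intervals (74.7%) and 89 wild-type intervals (50%).

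Those 192 tied intervals were ranked by the depth of the fall, an order chosen after the tie had been seen. In 25 of them, on 13 chromosomes, the share fell from 100% to 0 in both samples, and in 9 of these 25 both flanking sites stood at 1 in both. The 25 have no order among themselves, and the 8 given here are the first along the genome. On chromosome II from 93596 to 143809, both flanking sites stood at 1 in both samples and the forks met at 119622 in E and 119173 in G. On chromosome III from 225075 to 273095 and on chromosome IV from 1240964 to 1276326 the flanking sites also stood at 1, and the meeting points of E and G lay 0.792 and 0.865 kb apart. The other 5 were on chromosome II from 143809 to 170082 and from 198489 to 238205, on IV from 1302863 to 1353690, and on V from 94179 to 145483 and from 353780 to 406865. Their lowest flanking probability was 0.892.

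The 8 widest zones had at least 1 flanking site under 0.8 in each sample. On chromosome IV from 505681 to 567979 the zone spanned 26.6 kb in E and 29.6 kb in G. The left flanking site started at 5.94 and 5.06 min and the right one at 15.6 and 17.4 min. Chromosome XIV from 352947 to 412436 had zones of 17.3 and 20.1 kb, and chromosome V from 256307 to 287584 had 20.7 and 18.8 kb. In these 3 the samples were alike. In others they were not: on chromosome VII from 111994 to 162844 the zone was 0 bp in E and 22.8 kb in G, and on VII from 568234 to 660126 it was 0 bp and 26.5 kb. The remaining 3, on XV from 354458, IV from 1166202 and XI from 447776, were 8.65 to 28.6 kb wide in E and 11.3 to 36.2 kb in G. Shared sites under 0.3 also lie inside the intervals on XV, at 373506, and on IV from 1166202, at 1213206. Another, at 550345, lies inside the interval on IV from 505681 to 567979. It stood at 0.241 in E and 0.232 in G and started at 3.27 and 2.64 min, before both flanking sites. G alone listed sites under 0.3 inside the intervals on XI, at 500325, and on VII, at 592120 (positions in G).

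Between sites and meeting points, forks of galactose often ran in a single direction. Positions passed by at least 0.9 of forks in 1 direction made up 56.2% of the fitted length in E and 63.6% in G, with 46.5% in glucose F, 27.4% in wild type A and 35.8% in B. The galactose values were the 2 highest, at an exact permutation p of 0.2. Of the 18 measures compared in this way, 15 reached the smallest possible p, and the median zone width, the number of sites and this share did not. Many of the 18 summarize the same site probabilities, distances or falls, so the 15 are not separate results.

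**Figure D3:**
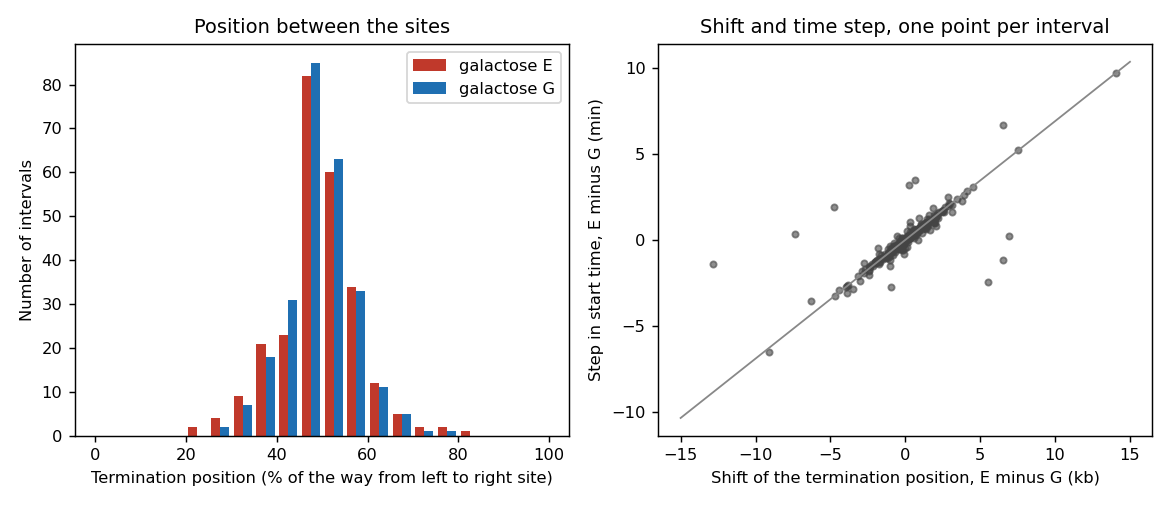
Left, where the forks met between the flanking sites, as a percentage of the way from the left to the right site, for the 257 shared intervals in galactose E and G; both distributions peak near the middle. Right, for the same intervals, the shift of the termination position (x axis, kb, E minus G) and the change of the E minus G start time from the left to the right site (y axis, min); the grey line is the step implied by constant fork speed, 0.690 min per kb.

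Galactose E and G differed in fitted start time by many minutes over long parts of a few chromosomes. The median start time was 3.10 min in E and 4.32 min in G. The 5th to 95th percentile ran from -1.64 to 11.8 min in E and from -1.13 to 20.8 min in G, so G reached later times. At the shared sites the median difference in start time was 2.25 min in either direction, and 83 sites (27.0%) differed by at least 5 min, against 3.17 min and 91 sites (34.2%) in wild type. Pearson's r of the start time over the shared sites was 0.528 (0.630 in wild type).

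The earliest and latest shared sites lay in different parts of the genome. The 8 earliest by mean start time were on chromosomes I at 202579, VI at 118644 and 20524, II at 704456, IX at 412187, XII at 1006854 and 1024373, and IV at 979527. They started at -3.45 to -0.931 min in E and -2.22 to 0.661 min in G, so all came before 1 min in both. Of the 8 latest, 6 were on chromosome IV between 567979 and 806115, where E stood at 14.5 to 16.7 min and G at 17.2 to 20.8 min. The other two, on chromosome VII at 319281 and 240936, stood at 25.2 and 24.0 min in G and at 9.93 and 7.10 min in E.

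Stretches of chromosome that were apart in time but alike in fork direction were sought in 2386 windows of 5 kb. Windows with mean times at least 5 min apart numbered 621 (26.0%), and windows whose rightward shares lay within 0.1 of each other numbered 1738 (72.8%). Both held in 433 windows, which is 18.1% of all windows tested, with E earlier in 347 and later in 86. The 2 samples have no common time 0, and with each centred on its own median the count was 421, with E earlier in 289 and later in 132. Wild type A and B gave 452 such windows, or 18.9%. The share of windows in galactose was thus close to that between the wild-type samples. Directions were within 0.1 in 69.7% of the windows that were apart in time and in 73.9% of the rest. At a threshold of 10 min in place of 5 min, 177 windows (7.42%) were left and E was earlier in all of them, against 166 (6.96%) in wild type. At 3 min there were 698.

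The called windows were unevenly spread. Chromosomes VII, XIV, XV and XVI held 85, 73, 67 and 86 of them, together 311 or 71.8%, where these chromosomes hold 32.5% of all windows. Chromosomes II, IV and XII had 36, 34 and 32, chromosomes VIII, IX and XIII had 7, 5 and 8, and the remaining 6 had none. Averaged over a whole chromosome, E minus G was -8.23 min on VII (11.5 min in E and 19.7 min in G), -7.56 min on XIV (5.96 and 13.5 min) and -6.03 min on XV (10.2 and 16.3 min). It was under 2 min in size on the other 13. Between wild type A and B, VII and XIV had 0 called windows, XV had 11 and XVI had 121. Within single chromosomes, r of the rightward share between E and G ran from 0.871 to 0.977, while r of the time ran from -0.115 on XVI to 0.969 on I.

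**Figure D4:**
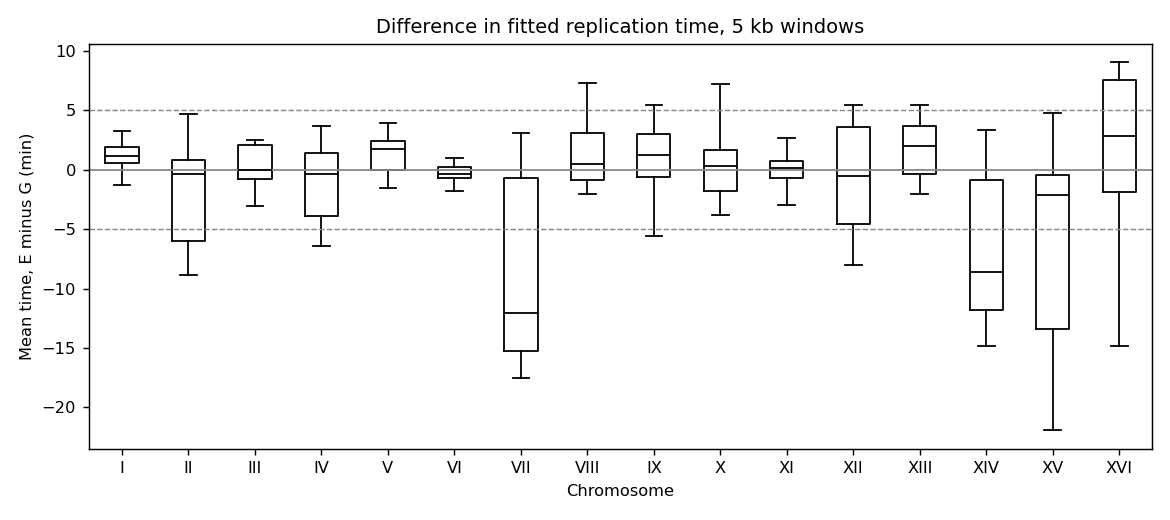
Difference in fitted mean time between galactose E and G (y axis, min, E minus G) over the 5 kb windows of each chromosome (x axis). Boxes give the quartiles and median, whiskers the lowest and highest window, and dashed lines the 5 min threshold; the windows of VII and XIV lie mostly below the lower line, those of XV reach lowest, and those of XVI lie on both sides of 0.

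The longest of 92 such stretches was on chromosome XV from 395001 to 495000. Its mean time was 9.97 min in E and 16.05 min in G, with 9.34 min in glucose F, 15.3 min in wild type A and 9.53 min in B. Its mean rightward share was 0.332 in E and 0.334 in G. On chromosome VII from 1 to 85000, E stood at 11.4 min and G at 25.1 min, with glucose at 10.6 min and wild type at 19.5 and 22.1 min. Within that stretch no window differed in rightward share by more than 0.0881. In these 2 stretches G was later than all 4 others. On XV, E was close to glucose F and wild type B, and wild type A stood near G. On VII, E was close to glucose F alone.

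On the left of chromosome XVI E was the later sample, in 11 stretches up to 460000, while 5 stretches from 765001 onward were earlier in E, by -14.6 to -5.72 min on average. From 235001 to 320000, E stood at 13.2 min and G at 5.39 min, with 9.27 min in glucose F, 12.2 min in wild type A and 11.2 min in B. From 335001 to 400000 the values were 12.9 min in E and 6.31 min in G, and from 1 to 50000 they were 17.1 and 8.23 min. These 3 are among the 10 longest, but the last ties at 50 kb with 2 others, XV from 200001 to 250000 and II from 450001 to 500000. Ties were ordered by the size of the mean difference, which put the stretch on II in the 11th place. That stretch was earlier in E, at 5.18 min against 11.9 min in G. On XVI from 235001 to 320000 the rightward share was 0.428 in E and 0.420 in G.

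The other 5 of the 10 longest were earlier in E. On chromosome XIV from 435001 to 515000, E stood at 4.89 min and G at 12.5 min, where the 3 other samples stood at 12.8 to 13.4 min. On XIV from 265001 to 330000, E stood at 5.33 min and G at 17.2 min, and the 3 others at 4.05 to 6.36 min. Chromosome VII from 115001 to 180000 had 10.6 min in E and 26.2 min in G, and XV from 200001 to 250000 had 10.3 and 27.1 min. On chromosome IV from 160001 to 225000 both were early, at 6.18 min in E and 11.4 min in G against 16.6 min in glucose F, 28.2 min in wild type A and 30.6 min in B. Across the 10 stretches, the SD of E minus G over windows ran from 0.0459 to 0.457 min. With a constant fork speed the slope of time along the chromosome follows from the rightward share, so the choice of windows alike in share fixes much of this evenness.

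Among shared sites of at least 0.3, the E minus G start time changed by 5 min or more in few places along a chromosome. Between 280 pairs of neighbouring shared sites of at least 0.3, the median change was 0.752 min in either direction, and 7 changes reached 5 min. Of these, 6 were on chromosomes VII (2), XVI (2), XIV and XV. The other, on chromosome XII between 412838 and 602863, spans the gap in the fit that runs from 450009 to 513173. These 7 were picked for their size and are a description.

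The sites counted here are again shared sites of at least 0.3 in both samples. On chromosome VII the first 14 sites, from 17700 to 508960, were 13.5 to 16.9 min earlier in E. The next, at 568234, was 9.78 min earlier, and at 660126 the difference was 0.0591 min. The 9 sites from there to 1063162 differed by -2.53 to 2.30 min. On chromosome XIV, 14 sites from 28378 to 544973 were 7.53 to 15.6 min earlier in E, and the 5 from 608943 onward differed by at most 0.562 min. On chromosome XV, 10 sites from 35916 to 354458 were 11.8 to 15.8 min earlier in E, and the 18 from 436809 onward differed by -6.27 to 2.83 min. On chromosome XVI, 12 sites from 43506 to 418351 were 6.26 to 8.85 min later in E, the next 10 differed by -6.59 to -0.189 min, and the last, at 881061, by -18.7 min (-4.58 min in E and 14.1 min in G). Weaker shared sites, left out of these ranges, could lie apart from their neighbours. On XV at 998498 the difference was -7.18 min, between 1.51 min at 981500 and 1.07 min at 1053808. It was -3.09 min on XV at 373506 and -3.20 min on VII at 739908.

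**Figure D5:**
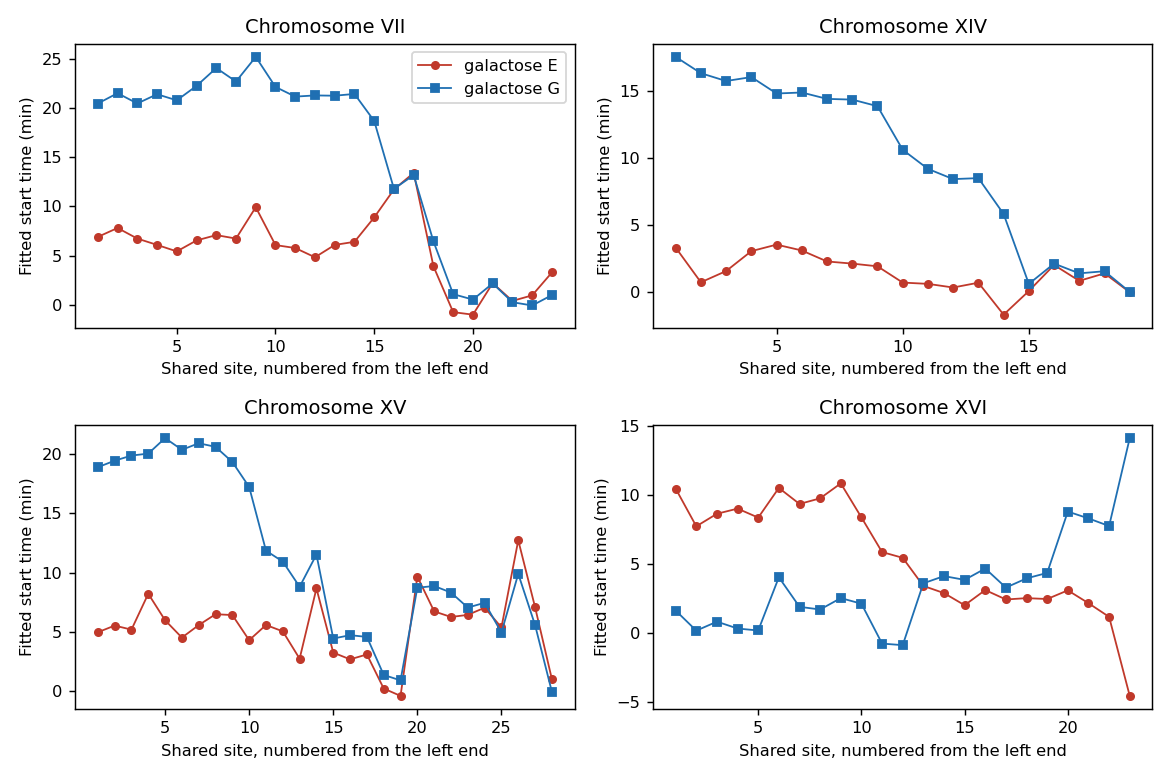
Fitted start time (y axis, min) of the sites shared by galactose E (red circles) and galactose G (blue squares), with probability of at least 0.3 in both, in order from the left end of chromosomes VII, XIV, XV and XVI. On VII, XIV and XV the left-hand sites of G lie above those of E and the right-hand sites overlap; on XVI the left-hand sites of E lie above those of G.

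These 4 chromosomes held most of the sites that differed in time by at least 5 min, while site use was alike there and elsewhere. Over their 98 shared sites the median absolute difference in start time was 7.32 min, 60 sites differed by at least 5 min, and r was 0.262. Over the 209 shared sites of the other 12 chromosomes the median was 1.88 min, 23 sites differed by at least 5 min, and r was 0.772. For the probability, r was 0.853 on the 4 chromosomes and 0.842 on the other 12. The split was made after the times had been seen.

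Each of the 4 time steps of at least 5 min within a shared interval went with a shift of the place where forks met. In the authors' fit the meeting point of 2 forks follows from their start times and the constant speed, and it lay within 10 bp of that point in 96.1% of the shared intervals in E and 99.2% in G. A shift of 1 kb between samples therefore equals 0.690 min, and 5 min equals 7.25 kb. On chromosome VII between 568234 and 660126, the forks met at 618295 in E and 604224 in G, 14.1 kb apart, and the time difference changed by 9.72 min. On VII between 508960 and 568234 they met 7.52 kb apart, with a change of 5.22 min. On chromosome XVI between 418351 and 457752 the meeting point lay further left in E, with a shift of -9.07 kb and a change of -6.53 min. On XV between 354458 and 436809 the shift was 6.52 kb and the change 6.66 min, and the zone there was 11.6 kb wide in E and 36.2 kb in G. Over the 257 intervals r of step and shift was 0.803, against 0.679 over the 178 shared intervals of wild type A and B. In that wild-type pair, 10 steps reached 5 min. The median step in either direction was 0.691 min in galactose and 1.07 min in wild type. Between E and G a shift could also come without such a step: on X between 459926 and 540662 it was -12.8 kb and the change -1.39 min. Whether the step in these intervals reflects the cells or the fit was not tested.

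Fork direction itself differed in few windows. The rightward shares of E and G were 0.5 or more apart in 29 of 2386 windows, against 10 of 2386 between wild type A and B. At 0.3 or more apart the counts were 112 and 78. Fewer positions of wild type had forks mostly in 1 direction, so the counts of the galactose and wild-type pairs are not like for like. The longest run at 0.5 or more was on chromosome XVI from 845001 to 870000, with a rightward share of 0.169 in E and 0.921 in G, and 0.608, 0.670 and 0.832 in glucose F and wild type A and B. It lies beside the site at 843460 that only G of the galactose samples listed. On chromosome X, windows from 180001 to 195000 had 0.963 in E and 0.129 in G, and those from 205001 to 215000 had 0 in E and 0.953 in G. Between them lies the site at 203803 that E lacks, and there the 3 other samples were on the side of G, at 0.0231 to 0.0992 and 0.906 to 0.981. On chromosome VII from 605001 to 615000 the shares were 0.854 and 0.273, in the interval of the largest time step within a single shared interval. On chromosome XIV from 555001 to 565000 they were 0.739 and 0.0881, beside the site at 567901 listed in G alone.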

How the data were processed

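The authors deposited, for each of 5 samples, fitted fork paths with a probability as a fraction (0 to 1) and times in minutes, those paths sampled along the genome, and the probability-weighted mean time at steps of 500 bp. How reads were aligned and fitted, and the genome build, is not given in the sources used here. From the deposited paths, sites (probability of at least 0.1), intervals (adjacent sites of at least 0.3) and termination positions were derived, and sites within 2500 bp were paired. Windows of 5 kb needed 50% of their positions. Deposited path probabilities summed to under 0.95 over 0.934% of the fitted length in E and 1.01% in G. Measures of each sample were compared by an exact two-sided permutation test, 2 galactose samples against 3, with Benjamini-Hochberg adjustment over 18 measures. Of these steps, only the reading of sites and their probabilities was tested on simulated data. Python 3.11.15, numpy 2.4.6, pandas 2.3.3 and matplotlib 3.10.9 were used. Read depth is unknown, so no counting interval was computed.

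Members and lists were chosen with earlier results of these data known. The rule for named items took the 10 longest stretches, the 8 shared sites with the largest difference in probability, the 8 narrowest and 8 widest zones, the 5 longest and 5 shortest distances, the 8 earliest and 8 latest shared sites, and every chromosome. Mean zone width and the share of intervals with the whole fall at 1 place were added after the median was found to be 0. Alternatives changed thresholds, pairing distance, window size and zone limits, or left out each sample.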

Additional observations from a re-analysis of the deposited data

How the results depend on the processing

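Of 67 alternative values, 60 were counted as like the main one, 8 of them a median zone width that stayed at 0. None of the 60 turned in direction, but the size was not always kept. The difference in median distance between sites went from -8.29 kb to -3.89 kb with sites of at least 0.1 (exact permutation p = 0.2). With sites of at least 0.5 it was -14.9 kb. That in mean zone width went from -3.88 to -8.00 kb with limits of 90% and 10%. The median zone width, equal at 0 in all samples, became 9.55 kb narrower in galactose than in the other 3 (difference -9.55 kb) with limits of 90% and 10%, and 7.79 kb narrower (-7.79 kb) with a rightward share of 0.75 to 0.25. With intervals bounded by sites of at least 0.9, an alternative chosen after seeing the data, the difference in mean width turned from -3.88 to 0.132 kb and that in the share with the whole fall at 1 place from 22.4 to -1.85 percentage points; wild type A then had 5 intervals, and the cause was not tested. The 433 windows apart in time became 698 at 3 min, 177 at 10 min and 227 of 1192 windows of 10 kb. Leaving out each sample gave differences between galactose and the others of 26.4 to 36.8 percentage points for sites at 0.9 or more, 0.170 to 0.204 for mean probability, -9.20 to -7.44 kb for the distance between sites, 0 for median zone width, -4.29 to -3.53 kb for mean zone width, and 15.2 to 29.6 percentage points for the whole fall at 1 place. No paired analysis was possible because the samples are labelled by letters that no 2 groups share. The unknown depth, 1 glucose sample and fitted rather than measured times limit all values.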
